A study of Mus musculus with 9 samples.

Results

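The genotype dependence of the response to FICZ, a ligand of the aryl hydrocarbon receptor (AHR), was examined gene by gene in mouse colon organoids. For each gene the FICZ change in AHR KO organoids was subtracted from the FICZ change in wildtype (WT) organoids. This difference of differences, termed the interaction below, was taken on log2(value + 1) of the normalised read counts, so a positive value stands for a higher change in WT. A gene entered the ranking if its mean over the 9 columns reached 10, which left 12741 of the 48795 genes in the deposited table. All 9 of the 9 libraries were used.

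Colon organoids are cultures of epithelial cells grown from crypts. They came from mice in which a Villin-driven Cre deletes a floxed Ahr in the epithelium (AHR KO) and from WT littermates, all on the C57BL/6 background, and the study stated 3 biological replicates. Organoids of both genotypes were kept in WENR, a medium with Wnt3a that holds them in a regenerative state, with the inhibitors SB202190 and A83-01 also present, and received DMSO or 5 nM FICZ for 4 h. As labelled, the 4 groups comprised WT DMSO (n = 2, numbers 2 and 3), WT FICZ (n = 3, numbers 1, 2 and 3), AHR KO DMSO (n = 2, numbers 1 and 3) and AHR KO FICZ (n = 2, numbers 1 and 3). Whether equal numbers mark the same animal is not given in the sources used here, so p-values measure the spread between these libraries.

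AHR is a transcription factor of the cytosol that enters the nucleus when a ligand binds, pairs with ARNT and binds DNA at a short core motif. In barrier tissues its best known targets are the Cyp1 enzymes, which clear ligands such as FICZ, and its own inhibitors AHRR and TIPARP. In the intestinal epithelium AHR is known for restraining stem cell programmes and for taking part in barrier repair.

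The column sums of the normalised table ran from 23177058 to 25033827. The expression of Ahr was not lower in the libraries labelled AHR KO. It was 787 and 858 in WT DMSO, 791, 798 and 783 in WT FICZ, 1404 and 1346 in AHR KO DMSO and 1443 and 1387 in AHR KO FICZ. Counts per gene do not show whether transcripts lack exons, so the name AHR KO is taken from the labels. The AHR target Cyp1b1 was lower in the libraries labelled AHR KO, at 34.5 and 25.4 against 1632 and 1078 with DMSO, and so was Cyp1a1 with FICZ, at 100.3 and 139 against 7797, 6987 and 7958. Epithelial markers were abundant in all libraries (Epcam 21237 to 35708), whereas Lum, Ptprc, Lyz2, Tyrobp and Emcn, markers of fibroblasts, leukocytes, macrophages and endothelium, were listed at 0 in all 9. The summed fibroblast markers were 59.4 to 112 in WT and 21.8 to 41.3 in AHR KO libraries, most of it Pdgfrb, and the summed immune markers were 482 to 726, most of it Cd68. The non-coding RNA gene Gm26917 was at 699 to 847 in DMSO and at 1832 to 2388 in FICZ libraries in both genotypes. The part of these differences in the results was not tested.

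The interaction was called for 57 of the 12741 genes, which is 0.447% of those tested (limma, Benjamini-Hochberg adjusted p under 0.05 over all genes tested). Called below always refers to this threshold. The change was higher in WT for 48 of them (0.377% of genes tested) and lower in WT for 9 (0.0706%). At an unadjusted p under 0.05 there were 952 genes. Far more genes were called for FICZ within a genotype, 3928 in WT (30.8%) and 2509 in AHR KO (19.7%). These counts depended on the processing and on single libraries, and fell to 2313 in WT and 683 in AHR KO with the GC and length trend removed and to 420 in AHR KO without AHR KO DMSO replicate 1. Among the 197 genes called in WT with at least a 2-fold change, the interaction was called for 17 of the 145 that rose and for 3 of the 52 that fell. The 95% interval of the interaction had a median half-width of 0.32 log2 units over all genes tested. Intervals are for single genes and are not adjusted for the number of genes.

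**Figure D1:**
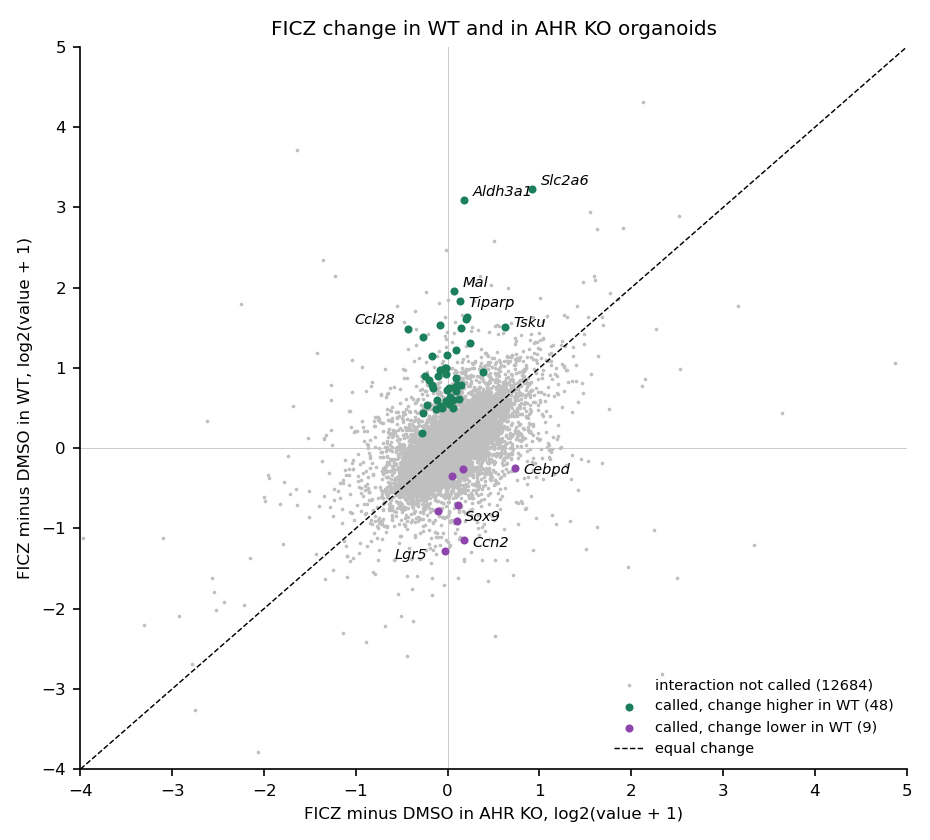
Each point is 1 gene, placed by its FICZ change in AHR KO (horizontal) and in WT (vertical), both as differences of mean log2(value + 1). The 48 genes called with a higher change in WT lie above the line of equal change and the 9 called with a lower change lie below it. The axes run from -4 to 5 and leave out 14 genes, 3 of them called (Ahrr, Gm10052 and Gm10146).

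The called genes followed few patterns. They were sorted by the FICZ calls of the main fit within each genotype, whose numbers depended on the processing and on single libraries, as given above. Of the 48 with a higher change in WT, 39 rose in WT and were not called in AHR KO, 5 rose in both genotypes (Ahrr, Slc2a6, Edc3, Tsku and Smox), 3 rose in WT and fell in AHR KO (Pof1b, Nfe2l2 and Gsta4), and 1, the pseudogene Gm10052, fell in both. Of the 9 with a lower change in WT, 7 fell in WT and were not called in AHR KO (Ccn2, Lgr5, Sox9, Ccn1, Dapk2, Pvr and Lrig1), and the other 2, Cebpd and the pseudogene Gm10146, rose in AHR KO and were not called in WT. Leaving out the 2 pseudogenes, 47 protein-coding genes had an interaction between 0.43 and 3.39 (median 0.90) and 8 had one between -1.33 and -0.39. The median change of the 47 was 0.87 in WT and -0.01 in AHR KO. For all 47 each of the 3 WT FICZ libraries exceeded each WT DMSO library, as for 3501 of the 12741 genes tested, but the same values enter the interaction that chose them. In AHR KO the FICZ libraries were above the DMSO libraries for 13 of the 47, below for 12 and overlapping for 22, against 3951, 4008 and 4782 of all genes tested. For 35 of the 47 the 95% interval of the AHR KO change contained 0, against 8370 of all genes tested, and no difference from the background was tested. The AHR KO values also enter the interaction, so the medians and these AHR KO counts are not independent of the calls.

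**Figure D2:**
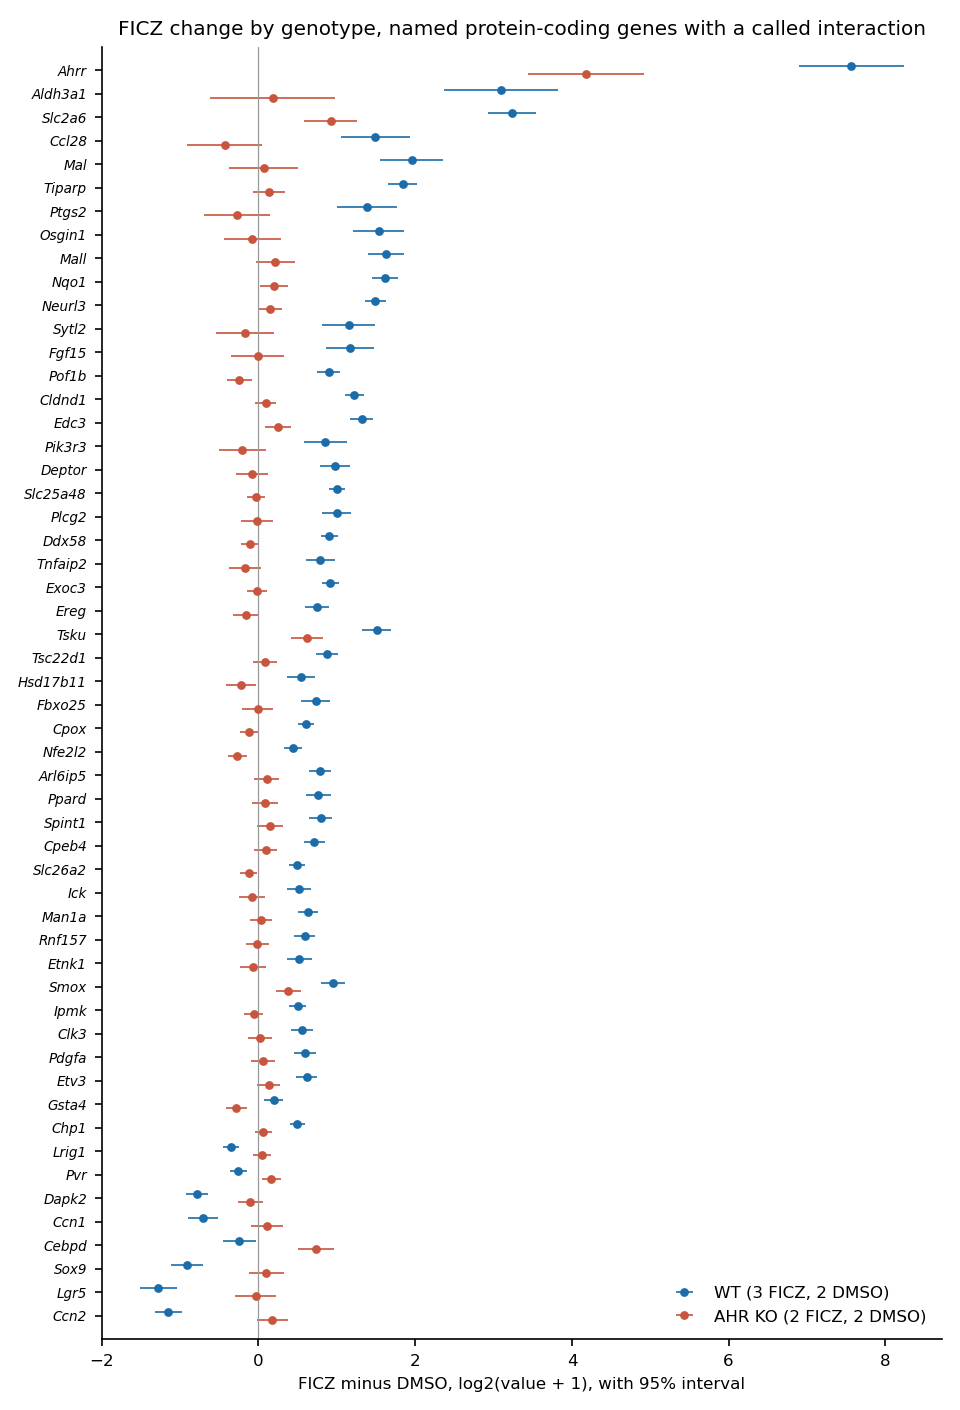
FICZ change (FICZ minus DMSO, log2(value + 1)) with its 95% interval in WT and AHR KO for 54 protein-coding genes called for the interaction (1 other called gene is not drawn), ordered by the interaction. The WT changes lie between -1.28 and 7.56, while most AHR KO changes lie close to 0, with Ahrr, Slc2a6, Cebpd and Tsku farthest from it.

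The called genes are described in groups that were put together after the calls were known and were not tested as groups. Feedback inhibitors of AHR, xenobiotic enzymes and redox genes come first. On the lists 1 of 20 NRF2 targets and 1 of 26 other drug-metabolising enzymes were called, against 0.447% of all genes tested. Most members of both lists were thus not called. Aldh3a1 and Nqo1, given below, were on neither of these lists and were counted with the AHR battery. Gsta4 was not on the NRF2 list and was counted with the other drug-metabolising enzymes. Ahrr (ENSMUSG00000021575, chromosome 13, 74211118 to 74292331, on the build GRCm38 as are all positions below) encodes the AHR repressor. It was at 1.49 and 1.51 in WT DMSO and 568, 427 and 435 in WT FICZ, against 0 and 0 in AHR KO DMSO and 16.9 and 17.3 in AHR KO FICZ. The gene thus appeared with FICZ in both genotypes, from values at or near 0, and reached a far higher level in WT. Its fitted interaction of 3.39 ± 0.45 (SE, adjusted p = 0.0100) is no measure of size, because with a pseudocount of 0.1 in place of 1 it was 0.78 (adjusted p = 0.871). Without WT FICZ replicate 1 or 3 the call was also lost (adjusted p up to 0.0683).

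Tiparp (ENSMUSG00000034640, chromosome 3, 65528410 to 65555518) encodes a mono-ADP-ribosyltransferase that inactivates AHR. It was at 1485 and 1420.2 in WT DMSO, 4989, 5723 and 4923 in WT FICZ, 1164 and 1064 in AHR KO DMSO and 1304 and 1137 in AHR KO FICZ (interaction 1.71 ± 0.12, SE, adjusted p = 0.000155). The WT FICZ libraries stood apart from all others, and the AHR KO groups overlapped. Aldh3a1 (ENSMUSG00000019102, chromosome 11, 61207537 to 61218421), an aldehyde dehydrogenase, was at 25.2 and 14.0 in WT DMSO and 221, 142 and 151 in WT FICZ, but at 58.0 and 67.7 in AHR KO DMSO and 51.6 and 98.2 in AHR KO FICZ (interaction 2.91 ± 0.49, SE, adjusted p = 0.0356). Its level before stimulation was thus higher in AHR KO, and its call was lost in 6 of the 9 settings that left out 1 library.

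Nqo1 (ENSMUSG00000003849, chromosome 8, 107388225 to 107403206), a quinone reductase, was at 581 and 595 in WT DMSO, 1864, 1809 and 1725 in WT FICZ, 267 and 242 in AHR KO DMSO and 288 and 295 in AHR KO FICZ (interaction 1.41 ± 0.11, SE, adjusted p = 0.000257). Both AHR KO FICZ libraries lay above both AHR KO DMSO libraries, by a change (0.20) that was not called (adjusted p = 0.115). Osgin1 (ENSMUSG00000074063, chromosome 8, 119434124 to 119446256), a growth inhibitor induced by oxidative stress, was at 157 and 209.6 in WT DMSO and 516, 542 and 525 in WT FICZ, against 232 and 182 in AHR KO DMSO and 179 and 209.7 in AHR KO FICZ (interaction 1.61 ± 0.22, SE, adjusted p = 0.0119). The call of Osgin1 was lost without AHR KO DMSO replicate 1. Further members of this group were Smox, a spermine oxidase (0.57, adjusted p = 0.0469), Cpox, an enzyme of haem synthesis (0.73, adjusted p = 0.000928), and Hsd17b11, a steroid dehydrogenase (0.77, adjusted p = 0.0222).

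Nfe2l2 and Gsta4 moved in opposite directions in WT and AHR KO. Nfe2l2 (ENSMUSG00000015839, chromosome 2, 75675513 to 75704641), which encodes the antioxidant regulator NRF2, rose from 9856 and 9099 to 13082, 12559 and 12876 in WT (change 0.44, adjusted p = 0.000352) and fell from 8159 and 7856 to 6675 and 6599.9 in AHR KO (change -0.27, adjusted p = 0.00946). Gsta4 (ENSMUSG00000032348, chromosome 9, 78182774 to 78209349), a glutathione transferase, rose from 5360.3 and 5569 to 5998, 6266 and 6498 in WT (change 0.19, adjusted p = 0.0213) and fell from 6207 and 5950.2 to 4838 and 5164 in AHR KO (change -0.28, adjusted p = 0.0106). The third gene of this pattern was Pof1b, given with the epithelial genes. In all 3 the groups did not overlap within either genotype. The interaction was 0.71 for Nfe2l2 (adjusted p = 0.00206) and 0.48 for Gsta4 (adjusted p = 0.0356), the latter lost in 7 of the 9 settings that left out 1 library.

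The promoters of the called genes were searched for the AHR core, because AHR binds DNA at this motif and these genes moved together. RefSeq promoter sequences (build GRCm38.p6, the 250 bases before the start of each gene) were matched by symbol for 36 of the 48 genes with a higher change in WT and for 3 of the 9 with a lower change. The core GCGTG, on either strand, was present for 20 of the 36 (55.6%), against 51% of the 9606 tested genes with a sequence. The longer form TNGCGTG, which contains the core, was present for 7 of the 36 (19.4%), namely Ahrr, Slc2a6, Ptgs2, Pof1b, Pik3r3, Ddx58 and Clk3, against 7.94% of the 9606. A match is a description of these letters and not a binding site. The 3 of these 7 with the highest interaction are shown 5′ to 3′ on the strand of the gene, with the match to TNGCGTG in capitals. The match starts 29 bases before the start of Ahrr and 100 before that of Ptgs2, on the same strand as the gene, and 109 bases before that of Slc2a6, on the opposite strand.

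Ahrr (chr13:74292332-74292581, minus strand): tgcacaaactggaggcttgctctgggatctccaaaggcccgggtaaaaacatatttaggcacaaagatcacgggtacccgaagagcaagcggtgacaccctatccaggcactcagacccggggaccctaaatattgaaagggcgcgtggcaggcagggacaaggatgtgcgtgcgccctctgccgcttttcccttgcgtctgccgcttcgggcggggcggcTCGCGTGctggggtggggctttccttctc

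Slc2a6 (chr2:27027999-27028248, minus strand): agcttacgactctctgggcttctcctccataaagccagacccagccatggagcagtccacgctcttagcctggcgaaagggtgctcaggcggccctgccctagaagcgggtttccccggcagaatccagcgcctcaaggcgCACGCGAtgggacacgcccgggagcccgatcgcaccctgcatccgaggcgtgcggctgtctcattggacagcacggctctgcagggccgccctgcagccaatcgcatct

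Ptgs2 (chr1:150099781-150100030, plus strand): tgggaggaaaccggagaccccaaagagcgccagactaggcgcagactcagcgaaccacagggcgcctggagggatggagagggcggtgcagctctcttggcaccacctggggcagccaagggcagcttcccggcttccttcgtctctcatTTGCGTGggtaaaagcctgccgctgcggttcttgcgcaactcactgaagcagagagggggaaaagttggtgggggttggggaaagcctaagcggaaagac

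The called genes included 3 solute carriers. Slc2a6 (ENSMUSG00000036067, chromosome 2, 27021363 to 27027998), a hexose transporter of lysosomes, was at 164 and 129.9 in WT DMSO, 1545, 1238 and 1383 in WT FICZ, 49.1 and 48.2 in AHR KO DMSO and 88.0 and 98.5 in AHR KO FICZ (interaction 2.31 ± 0.21, SE, adjusted p = 0.000575). It rose in both genotypes without overlap, 9.44-fold in WT and 1.92-fold in AHR KO, and the highest AHR KO FICZ library remained below both WT DMSO libraries. Slc25a48 (ENSMUSG00000021509, chromosome 13, 56438355 to 56474239), a carrier of the inner mitochondrial membrane, was at 2174 and 2121 in WT DMSO, 4161, 4428 and 4331 in WT FICZ, 2865 and 2821 in AHR KO DMSO and 2782 and 2795 in AHR KO FICZ. Its level before stimulation was higher in AHR KO, and the interaction (1.03 ± 0.07, SE, adjusted p = 0.000155) stood beside an AHR KO change of -0.03 that was not called (adjusted p = 0.751). Slc26a2, a sulphate transporter, had an interaction of 0.62 (adjusted p = 0.00231).

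Other called genes have known roles in membrane trafficking or at epithelial junctions. Mal (ENSMUSG00000027375, chromosome 2, 127633226 to 127656695), a proteolipid of membrane rafts that takes part in apical transport, was at 346 and 220.3 in WT DMSO, 1156, 1032 and 1037 in WT FICZ, 271 and 305 in AHR KO DMSO and 259.6 and 349.5 in AHR KO FICZ (interaction 1.89 ± 0.27, SE, adjusted p = 0.0141). Its relative Mall (ENSMUSG00000027377, chromosome 2, 127704386 to 127729932) lies 47691 bases from Mal on the same chromosome and strand and was at 3215 and 2808 in WT DMSO, 9142, 8879.9 and 9911 in WT FICZ, 1758 and 1832 in AHR KO DMSO and 2373 and 1824 in AHR KO FICZ (interaction 1.42 ± 0.15, SE, adjusted p = 0.00232). Both genes rose in WT, 3.79-fold and 3.09-fold, while their AHR KO groups overlapped. The call of Mal was lost without either AHR KO DMSO library.

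Sytl2 (ENSMUSG00000030616, chromosome 7, 90302252 to 90410719), a Rab27 effector of vesicle docking, rose from 472 and 384 to 906, 925 and 1011 in WT and was at 123 and 102 in AHR KO DMSO and 117 and 85.4 in AHR KO FICZ (interaction 1.32 ± 0.23, SE, adjusted p = 0.0416). Its AHR KO libraries all lay below its WT libraries, and its call was lost in 8 of the 9 settings that left out 1 library. Exoc3 (ENSMUSG00000034152, chromosome 13, 74169488 to 74208732), a subunit of the exocyst, which tethers vesicles to the membrane, rose from 1704 and 1778 to 3217, 3316 and 3339 in WT and was at 1562 and 1563 in AHR KO DMSO and 1569 and 1515 in AHR KO FICZ (interaction 0.94 ± 0.07, SE, adjusted p = 0.000257). Exoc3 lies beside Ahrr on chromosome 13, both on the minus strand, 2386 bases apart. This and the other neighbours named here were noticed after the values were seen.

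Pof1b (ENSMUSG00000034607, chromosome X, 112638431 to 112698651), an actin-binding protein of epithelial junctions, rose from 1232 and 1123 to 2275, 2130.4 and 2165 in WT and fell from 823 and 859 to 729.9 and 688 in AHR KO (interaction 1.14 ± 0.10, SE, adjusted p = 0.000440). Cldnd1 (ENSMUSG00000022744, chromosome 16, 58727910 to 58734251), a membrane protein with a claudin domain, rose from 1608 and 1640.3 to 3635, 3947 and 3786 in WT and was at 1195 and 1263 in AHR KO DMSO and 1322 and 1303 in AHR KO FICZ (interaction 1.13 ± 0.08, SE, adjusted p = 0.000155). Cpox, also called, lies beside it on chromosome 16, 10274 bases away. Smaller interactions were found for Spint1, an inhibitor of membrane serine proteases (0.65, adjusted p = 0.0222), Arl6ip5, a membrane protein of the endoplasmic reticulum (0.68, adjusted p = 0.0137), Man1a, a Golgi mannosidase (0.60, adjusted p = 0.0138), and Chp1, a partner of sodium-proton exchangers (0.43, adjusted p = 0.0194).

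Some called genes with a higher change in WT encode secreted or inflammatory proteins, although 16 of 19 genes on the list of chemokines and cytokines had a negative interaction. Ccl28 (ENSMUSG00000074715, chromosome 13, 119623819 to 119654359), a mucosal chemokine, rose from 262 and 223 to 753, 603 and 697 in WT and was at 70.6 and 83.0 in AHR KO DMSO and 72.3 and 44.2 in AHR KO FICZ (interaction 1.92 ± 0.29, SE, adjusted p = 0.0206). Ptgs2 (ENSMUSG00000032487, chromosome 1, 150100031 to 150108227), the inducible enzyme of prostaglandin synthesis, rose from 222 and 148 to 464, 491 and 470.1 in WT and was at 125 and 119 in AHR KO DMSO and 89.2 and 114 in AHR KO FICZ (interaction 1.66 ± 0.25, SE, adjusted p = 0.0206). For both genes each AHR KO library was below each WT library, and both calls were lost in 5 or more of the 9 settings that left out 1 library. Ereg (ENSMUSG00000029377, chromosome 5, 91074622 to 91093646), a ligand of the EGF receptor, rose from 1421 and 1251 to 2233, 2234 and 2232 in WT and was at 1036 and 1147 in AHR KO DMSO and 966 and 990.0 in AHR KO FICZ (interaction 0.90 ± 0.10, SE, adjusted p = 0.00362).

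Tsku (ENSMUSG00000049580, chromosome 7, 98350668 to 98361328), a secreted leucine-rich repeat protein, rose in both genotypes, from 532 and 467 to 1491, 1421 and 1357 in WT and from 661 and 585 to 937 and 977 in AHR KO (interaction 0.89 ± 0.12, SE, adjusted p = 0.0128). The rise was 2.85-fold in WT and 1.54-fold in AHR KO. Tnfaip2 (ENSMUSG00000021281, chromosome 12, 111442469 to 111455018), a gene induced by tumour necrosis factor, was at 3840.2 and 3560.1 in WT DMSO, 5937, 7161 and 6112 in WT FICZ, 7939 and 8074 in AHR KO DMSO and 6689 and 7517 in AHR KO FICZ (interaction 0.96 ± 0.12, SE, adjusted p = 0.00784). With FICZ its WT level came to overlap that of AHR KO FICZ, the one gene of the 47 for which the FICZ groups of both genotypes overlapped. Ddx58 (ENSMUSG00000040296, chromosome 4, 40203773 to 40239828), which encodes the RNA sensor RIG-I, rose from 2797 and 2620.3 to 5095, 5032 and 5074 in WT and was at 3066 and 3161 in AHR KO DMSO and 2889.8 and 2897 in AHR KO FICZ (interaction 1.01 ± 0.07, SE, adjusted p = 0.000155).

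Fgf15 (ENSMUSG00000031073, chromosome 7, 144896531 to 144900953), a hormone that limits bile acid synthesis, rose from 112 and 108 to 259, 269 and 217 in WT and was at 98.9 and 104 in AHR KO DMSO and 105 and 96.4 in AHR KO FICZ (interaction 1.18 ± 0.20, SE, adjusted p = 0.0434). This was the one called gene whose call was lost in all 9 settings that left out 1 library. Pdgfa, a growth factor for mesenchymal cells, had an interaction of 0.54 (adjusted p = 0.0416).

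The remaining called genes with a higher change in WT have roles in signalling and gene regulation. Neurl3 (ENSMUSG00000047180, chromosome 1, 36264597 to 36274679), a ubiquitin ligase of the neuralized family, rose from 2528 and 2198 to 6535, 6635 and 6728 in WT and was at 1815 and 1760.3 in AHR KO DMSO and 2018 and 1944 in AHR KO FICZ (interaction 1.34 ± 0.09, SE, adjusted p = 0.000155). Edc3 (ENSMUSG00000038957, chromosome 9, 57708540 to 57752499), which enhances the decapping of mRNA, rose from 889 and 944 to 2286, 2275 and 2283 in WT and from 824 and 898 to 972 and 1074 in AHR KO (interaction 1.07 ± 0.10, SE, adjusted p = 0.000728). Edc3 starts 4716 bases from the end of Cyp1a1 on chromosome 9, on the same strand. Deptor (ENSMUSG00000022419, chromosome 15, 55112317 to 55259271), an inhibitor of mTOR, rose from 1930.4 and 2162 to 3987, 3861 and 4200.3 in WT and was at 1584 and 1418 in AHR KO DMSO and 1537 and 1303 in AHR KO FICZ (interaction 1.06 ± 0.13, SE, adjusted p = 0.00481).

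Plcg2, a phospholipase of receptor signalling, had an interaction of 1.01 (adjusted p = 0.00581), and Pik3r3, a regulatory subunit of phosphoinositide 3-kinase, one of 1.06 (adjusted p = 0.0428). The kinases Ipmk (0.56), Ick (0.61), Etnk1 (0.59) and Clk3 (0.54), the ubiquitin ligase genes Fbxo25 (0.74) and Rnf157 (0.60) and the RNA-binding Cpeb4 (0.62) had smaller positive interactions, with adjusted p between 0.0113 and 0.0456. Among regulators of transcription, Tsc22d1 (0.78, adjusted p = 0.00481), the fatty acid receptor Ppard (0.68, adjusted p = 0.0206) and the ETS repressor Etv3 (0.49, adjusted p = 0.0484) also had positive interactions.

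Among the called genes with a lower change in WT were Ccn2, Ccn1, Lgr5 and Sox9. On their lists 2 of 20 YAP/TEAD targets and 2 of 23 Wnt and stem cell genes were called, against 0.447% of all genes tested. These genes do not stand for all members of the lists, of which 8 of the 20 and 11 of the 23 were positive. Lrig1, a stem cell marker given below, was counted with the EGF ligands and ErbB receptors. Ccn2 (ENSMUSG00000019997, chromosome 10, 24595442 to 24598683), a matricellular protein and target of YAP, fell from 2467 and 2370.1 to 1109, 1174 and 992 in WT and was at 5616 and 5338 in AHR KO DMSO and 5792 and 6618 in AHR KO FICZ (interaction -1.33 ± 0.12, SE, adjusted p = 0.000575). Ccn1 (ENSMUSG00000028195, chromosome 3, 145646976 to 145649981), its relative and likewise a YAP target, fell from 999.8 and 891 to 609, 591 and 541 in WT and was at 1476 and 1384 in AHR KO DMSO and 1443 and 1649 in AHR KO FICZ (interaction -0.81 ± 0.13, SE, adjusted p = 0.0222). In both genes FICZ moved the WT level away from the higher level of AHR KO, so that the genotypes lay farther apart with FICZ than without it. The call of Ccn1 was lost in 5 of the 9 settings that left out 1 library. In the 250 bases before the RefSeq start of Ccn1, which lies a few bases upstream of the annotated start given above, 1 match to GGAATG, the motif bound by the TEAD partners of YAP, lies on the opposite strand and starts 103 bases before the RefSeq start. The TEAD motif was present for 12.7% of the 9606 tested genes with a sequence and for 4 of the 36 genes with a higher change in WT (11.1%: Chp1, Cldnd1, Hsd17b11 and Mal), and no promoter sequence was matched for Ccn2. The sequence of Ccn1 is printed because the gene is a YAP target, and nothing is drawn from the match. Its promoter also holds the AHR core GCGTG on the opposite strand.

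Ccn1 (chr3:145649986-145650235, minus strand, match to GGAATG in capitals): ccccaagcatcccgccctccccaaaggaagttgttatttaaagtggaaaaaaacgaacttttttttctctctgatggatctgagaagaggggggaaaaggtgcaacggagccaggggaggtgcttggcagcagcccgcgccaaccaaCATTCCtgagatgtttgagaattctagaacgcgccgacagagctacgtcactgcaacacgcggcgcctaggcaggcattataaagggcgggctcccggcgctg

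Lgr5 (ENSMUSG00000020140, chromosome 10, 115450311 to 115587780), the R-spondin receptor that marks crypt stem cells, fell from 1271 and 1200.0 to 490.5, 547 and 492 in WT and was at 1561 and 1327 in AHR KO DMSO and 1579 and 1253 in AHR KO FICZ (interaction -1.24 ± 0.16, SE, adjusted p = 0.00784). Sox9 (ENSMUSG00000000567, chromosome 11, 112782224 to 112787760), a transcription factor of the crypt base, fell from 3696 and 3551 to 2186, 1665 and 1951 in WT and was at 3985 and 3877 in AHR KO DMSO and 4149 and 4279 in AHR KO FICZ (interaction -1.01 ± 0.14, SE, adjusted p = 0.0113). In WT they fell to 0.413 and 0.534 times the DMSO level, and neither change was called in AHR KO. The calls were lost without AHR KO DMSO replicate 3 for Lgr5 (adjusted p = 0.0611) and in 4 of the 9 settings that left out 1 library for Sox9.

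Lrig1 (ENSMUSG00000030029, chromosome 6, 94604529 to 94700158), a stem cell marker that restrains ErbB receptors, fell from 3447 and 3300.0 to 2612, 2657 and 2683 in WT and was at 3408 and 3466 in AHR KO DMSO and 3494 and 3599 in AHR KO FICZ (interaction -0.39 ± 0.07, SE, adjusted p = 0.0456). Dapk2 (ENSMUSG00000032380, chromosome 9, 66158223 to 66272242), a calmodulin-regulated kinase of cell death, fell from 1280.2 and 1258 to 738, 743 and 727 in WT and was at 1214 and 1206 in AHR KO DMSO and 1191 and 1064 in AHR KO FICZ (interaction -0.68 ± 0.09, SE, adjusted p = 0.0129). Pvr (ENSMUSG00000040511, chromosome 7, 19903578 to 19921160), an adhesion receptor of the nectin family, fell from 1623 and 1633 to 1360.4, 1366 and 1359.8 in WT and was at 1514 and 1525 in AHR KO DMSO and 1713 and 1692 in AHR KO FICZ (interaction -0.42 ± 0.07, SE, adjusted p = 0.0416). In WT the levels with FICZ were 0.786, 0.580 and 0.837 times those in DMSO, in the order given, and the calls of Lrig1 and Pvr were lost in 8 of the 9 settings that left out 1 library.

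Cebpd (ENSMUSG00000071637, chromosome 16, 15887286 to 15891031), a transcription factor of stress and inflammation, showed the reverse arrangement. It rose from 323 and 317 in AHR KO DMSO to 577 and 491 in AHR KO FICZ, and was at 383 and 406 in WT DMSO and 344, 335 and 319 in WT FICZ (interaction -0.98 ± 0.14, SE, adjusted p = 0.0141). The groups did not overlap in either genotype, and the WT change (-0.25) was not called (adjusted p = 0.0717). The call was lost without any 1 of the 4 DMSO libraries.

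**Figure D3:**
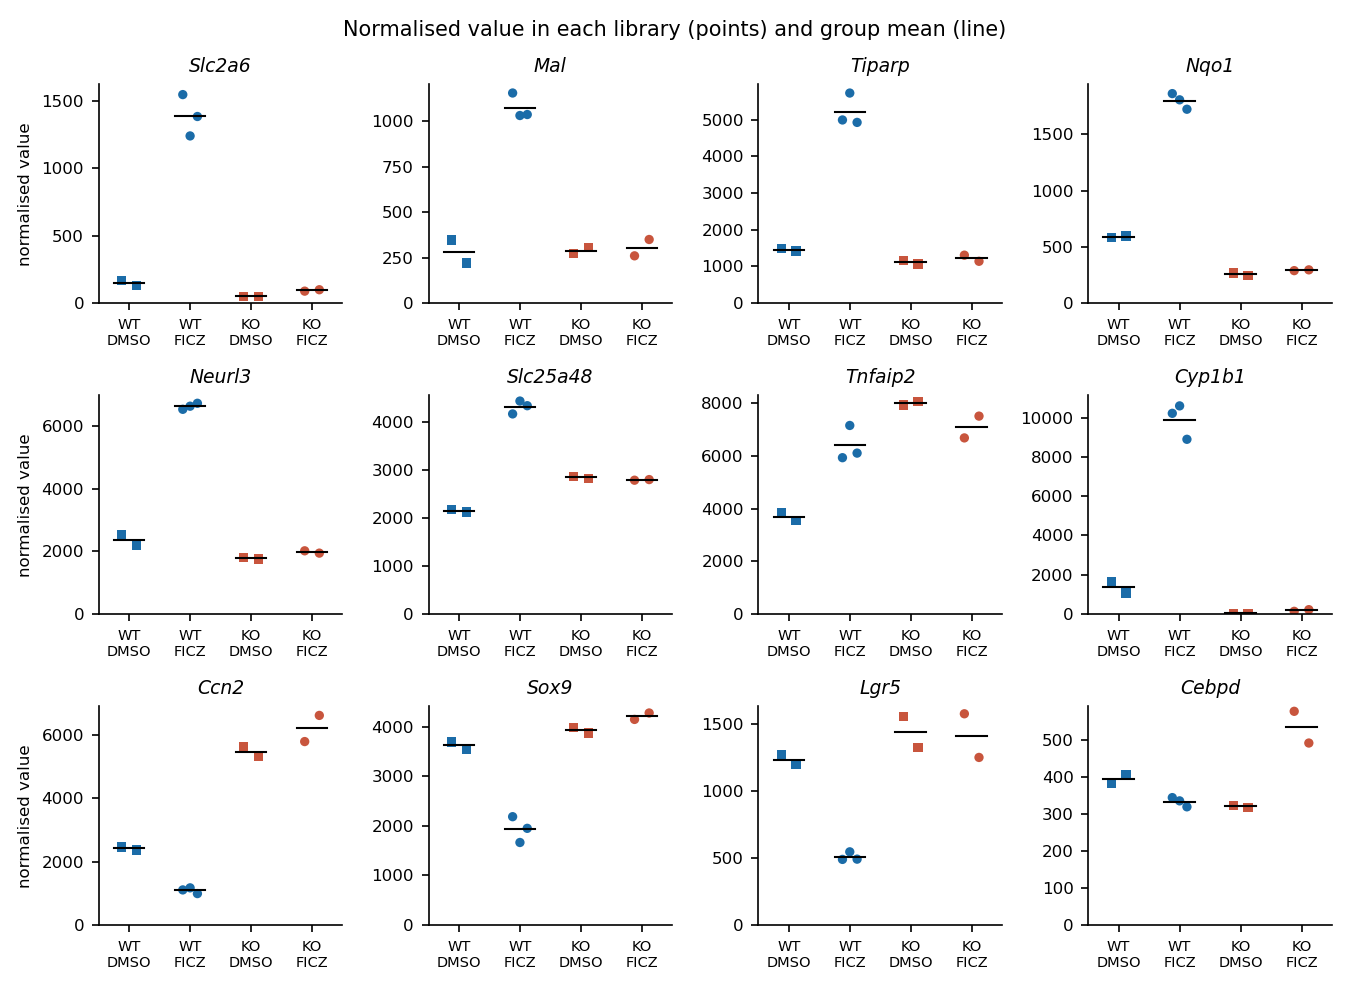
Normalised value in each library (squares for DMSO, circles for FICZ, WT in blue and AHR KO in red) with the group mean as a line, for 11 called genes and Cyp1b1. The WT FICZ libraries stand above all other libraries for Slc2a6, Mal, Tiparp, Nqo1, Neurl3 and Slc25a48 and below all others for Ccn2, Sox9 and Lgr5.

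The level without FICZ was compared between genotypes for the same genes, as a description. Of the 47 protein-coding genes with a higher change in WT, 31 had both AHR KO DMSO libraries below both WT DMSO libraries, 9 had them above (Aldh3a1, Slc25a48, Plcg2, Ddx58, Tnfaip2, Tsku, Arl6ip5, Etnk1 and Gsta4) and 7 overlapped. Over all genes tested, AHR KO DMSO was below WT DMSO for 4007, above for 3383 and overlapping for 5351. With FICZ, 46 of the 47 had both AHR KO libraries below all WT libraries, and all 8 protein-coding genes with a lower change in WT had them above, while over all genes tested 3104 were below, 2914 above and 6723 overlapping. The levels of every group enter the interaction, so these counts are not independent of the calls.

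The 2 called pseudogenes share their sequence with an expressed gene. Gm10052 (ENSMUSG00000058922, chromosome 9, 123689233 to 123690192) was at 1258 and 1106 in WT DMSO, 149, 214 and 335 in WT FICZ, 1351 and 1174 in AHR KO DMSO and listed at 0 in AHR KO FICZ, in each library. The annotated transcript of 960 bases aligned over its whole length, without a mismatch, to a transcript of Hnrnpa1, an RNA-binding protein. Gm10146 (ENSMUSG00000064317, chromosome 10, 78393320 to 78393628) was listed at 0 in 7 libraries and was at 158 and 98.7 in the AHR KO FICZ libraries, and its 309 bases aligned without a mismatch to Lsm7, a subunit of the U6 RNA complex. The interaction of the parent gene was not called in either case (-0.08, adjusted p = 0.921 for Hnrnpa1 and 0.29, adjusted p = 0.813 for Lsm7). Reads from identical stretches cannot be assigned to one copy, so the values of both pseudogenes are uncertain.

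The ends of the complete ranking were for the most part not called. Of the 50 genes with the highest interaction 8 were called, and of the 50 with the lowest 1 was called (Gm10146). In the top 50, 35 had a mean under 50, 21 were at 0 in at least 1 library and 11 were pseudogenes, and in the bottom 50 these numbers were 45, 17 and 10. The median SE of the interaction was 0.92 in the top 50 and 1.09 in the bottom 50, against 0.15 over all genes tested. Phf11b, the PHD finger protein at rank 10, was at 11.7 and 12.2 in WT DMSO, 19.6, 13.3 and 13.9 in WT FICZ, 12.0 and 13.6 in AHR KO DMSO and 4.00 and 0 in AHR KO FICZ (interaction 2.96, 95% interval 0.91 to 5.01). At the other end the zinc finger gene Zfp382 was at 34.1 and 18.8 in WT DMSO, 13.5, 6.35 and 11.6 in WT FICZ, 13.6 and 9.20 in AHR KO DMSO and 33.0 and 34.4 in AHR KO FICZ (interaction -2.77, adjusted p = 0.124). These are low values with wide intervals, and the ribosomal pseudogene Rps13-ps2, at 907 and 542 in WT DMSO and 0, 514 and 0 in WT FICZ, shows how far libraries of 1 group could lie apart.

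The call rate rose with the level of the gene. The interaction was called for 1 of 1766 genes with a mean of 10 to 50, 3 of 1814 with a mean of 50 to 200, 13 of 4246 with a mean of 200 to 1000 and 40 of 4915 with a mean of 1000 or more. The SD of the interaction over genes was 0.79 in the first of these classes and 0.18 in the last. Among the 7113 genes with a mean of 500 or more, 27 of the 50 highest and 5 of the 50 lowest were called. A low gene therefore had to differ far more to be called, and the absence of a call there gives no statement on equality.

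**Figure D4:**
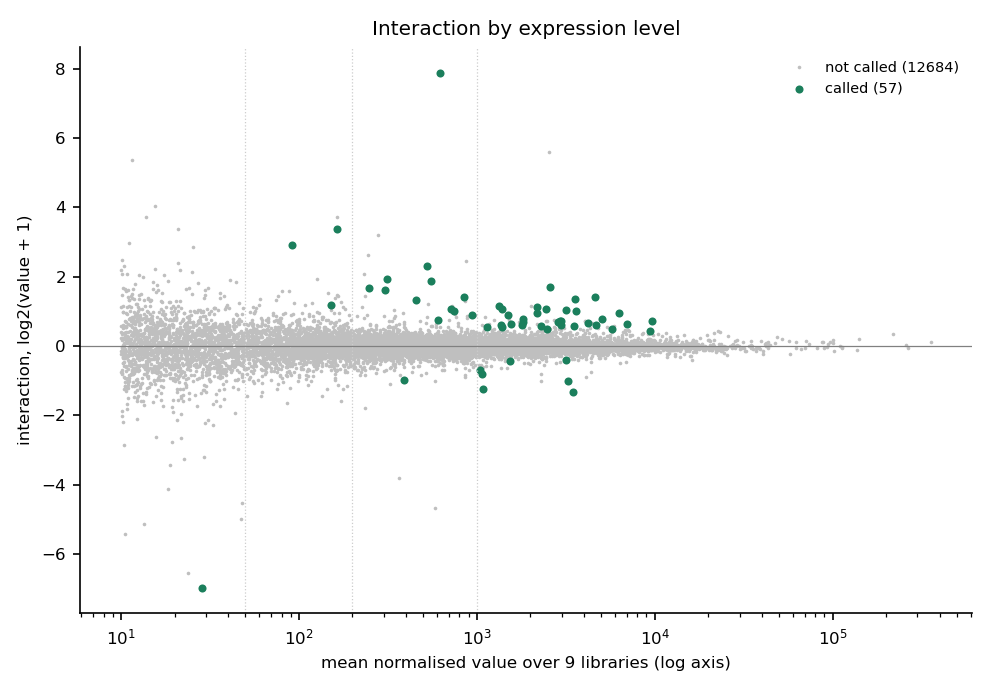
Interaction of each of the 12741 genes (log2(value + 1)) against its mean normalised value over the 9 libraries (log axis), with called genes in green and dotted lines at means of 50, 200 and 1000. The spread narrows towards high means, and 40 of the 57 called genes have a mean of 1000 or more.

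The scale decided the call for the Cyp1 enzymes. Cyp1a1 (ENSMUSG00000032315, chromosome 9, 57687928 to 57703824) was at 5.84 and 0 in WT DMSO, 7797, 6987 and 7958 in WT FICZ, 0 and 2.93 in AHR KO DMSO and 100.3 and 139 in AHR KO FICZ. Cyp1b1 (ENSMUSG00000024087, chromosome 17, 79701537 to 79715061) was at 1632 and 1078 in WT DMSO, 10220.3, 10599.6 and 8898 in WT FICZ, 34.5 and 25.4 in AHR KO DMSO and 137 and 222 in AHR KO FICZ. Both rose in both genotypes without overlap, from an AHR KO level that was at or near 0 for Cyp1a1 and, for Cyp1b1, far below that of WT. The gain in mean normalised counts was 7578 in WT and 118 in AHR KO for Cyp1a1, and 8551 and 149 for Cyp1b1. On the log2 scale the interaction was 5.59 for Cyp1a1 (95% interval 3.23 to 7.95, adjusted p = 0.0677) and 0.38 for Cyp1b1 (95% interval -0.35 to 1.11, adjusted p = 0.881). Cyp1a1 was at 0 in 1 library of each DMSO group, so its log2 value depends on the pseudocount. On a square-root scale, which lies closer to differences in counts, both Cyp1a1 and Cyp1b1 were called (adjusted p = 1.23e-07 and 7.51e-05).

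That scale gave 72 calls, of which 56 were among the 57. Beside the Cyp1 enzymes, and chosen after their values were seen, the genes it added included the glucuronosyltransferase Ugt1a7c, with a gain of 3531 in WT and 93.2 in AHR KO (adjusted p = 0.00196), and the selenium-binding Selenbp1, with 2526 and 228 (adjusted p = 0.0117). On the log2 scale Ugt1a7c (0.71, interval 0.32 to 1.10, adjusted p = 0.207) and Selenbp1 (1.15, interval 0.63 to 1.66, adjusted p = 0.0872) were positive as well and not called. Cyp1b1 differed from these in that its fold was similar in both genotypes, 7.31 in WT and 5.98 in AHR KO.

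Gene lists were described by their counts and medians. The median interaction over all genes tested was -0.01, with 6095 positive and 6646 negative. It was called for 0.447% of all genes tested, and no difference of a list from that share was tested. Of the AHR battery, 9 of 10 genes were tested, all 9 had a positive interaction and 5 were called (Ahrr, Aldh3a1, Tiparp, Nqo1 and Nfe2l2), with a median of 1.41 that lay between 1.04 and 1.48 over the alternative settings, in which 8 or 9 were positive and 3 to 6 called. The AHR complex and its partners, 12 genes tested, held no call and had interactions between -0.14 (Hsp90aa1, a chaperone) and 0.22 (Ncoa2, a coactivator), with 95% intervals of -0.39 to 0.11 and -0.07 to 0.52. Of 20 NRF2 targets 1 was called (Osgin1) and 14 were positive (median 0.11), and of 26 other drug-metabolising enzymes 1 was called (Gsta4) with a median of 0.04 that turned negative in 2 settings. These counts leave out Aldh3a1 and Nqo1, which were counted with the AHR battery, and the NRF2 count leaves out Gsta4.

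The lists named after the low end follow. Over all genes tested the interaction was called for 0.447%, and with a lower change in WT for 0.0706%. Of 20 YAP/TEAD targets tested 2 were called (Ccn1 and Ccn2) and 12 were negative (median -0.11, between -0.18 and -0.07 over the alternatives). Ankrd1, another YAP target, was at 36.0 and 16.0 in WT DMSO, 8.76, 16.4 and 5.98 in WT FICZ, 187 and 155 in AHR KO DMSO and 119 and 185 in AHR KO FICZ, with an interval of -2.46 to 0.36. Of 23 Wnt and stem cell genes 2 were called (Lgr5 and Sox9) and 12 were negative, with a median of -0.000786 whose sign changed in 7 settings. This count leaves out the stem cell marker Lrig1, which was counted with the EGF ligands and ErbB receptors. In WT 5 of the 23 Wnt and stem cell genes were called higher and 3 lower, against 15.1% and 15.7% of all genes tested. Myc, a Wnt target that fell in WT (change -0.31, adjusted p = 0.00525), had an interaction of -0.24 (95% interval -0.45 to -0.03, adjusted p = 0.570). Of 5 C/EBP genes 1 was called (Cebpd), while Cebpb, chosen after its values were seen, rose in both genotypes (change 1.24 in WT and 0.98 in AHR KO, interaction 0.26, interval -0.23 to 0.76).

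Of 19 fetal-like and regenerative genes 1 was called, Ereg, with a higher change in WT, and the median was -0.06 with its sign changed in 2 settings. Il33, an alarmin, had an interaction of -0.62 (95% interval -1.07 to -0.17, adjusted p = 0.414), and Ly6a, which encodes the regenerative marker Sca-1, one of -0.14 (-0.35 to 0.07, adjusted p = 0.839). Of 18 intestinal identity transcription factors 1 was called with a higher change in WT and 14 were positive (median 0.15, between 0.07 and 0.18 over the alternatives). Cdx2, the caudal homeobox factor, was at 4099.6 and 3644 in WT DMSO, 7393, 6006 and 6869.8 in WT FICZ, 2788 and 2958 in AHR KO DMSO and 3269 and 3104 in AHR KO FICZ (interaction 0.65, 95% interval 0.37 to 0.93, adjusted p = 0.0747). The interaction was 0.28 for Cdx1 (interval -0.03 to 0.60) and 0.25 for Rxra (interval -0.02 to 0.51), and neither was called.

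Mature absorptive genes held no call among 19 tested. Their median of 0.17 turned negative without AHR KO FICZ replicate 3 (-0.10), and the list ran from -0.31 to 1.94 (Slc9a3, a sodium-proton exchanger, interval 0.54 to 3.35). Slc26a3, the chloride exchanger of colonocytes, was at 24.1 and 16.4 in WT DMSO, 35.6, 25.6 and 32.1 in WT FICZ, 15.2 and 8.78 in AHR KO DMSO and 4.16 and 4.26 in AHR KO FICZ (interaction 1.88, interval 0.66 to 3.10, adjusted p = 0.326). The goblet, enteroendocrine and tuft list (9 tested of 22) and the proliferation list (22 tested) held no call, and their medians of 0.10 and 0.01 changed sign in 6 and 4 settings. Among proliferation genes the interaction ran from -0.38 (Mcm3, a replication helicase subunit) to 0.22 (Bub1, a mitotic checkpoint kinase).

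Of the other lists, cholesterol and fatty acid synthesis genes and chemokines and cytokines are given first, with mostly negative interactions. All 20 cholesterol and fatty acid synthesis genes had a negative interaction (median -0.20, between -0.27 and -0.13 over the alternatives), with none called and 5 at an unadjusted p under 0.05, and up to 2 of the 20 turned positive under an alternative. In WT 8 of the 20 were called lower and 2 higher, against 15.7% and 15.1% of all genes tested, and in AHR KO 4 were called higher, against 10.2%, and none lower. Of 19 chemokines and cytokines 16 were negative (median -0.24, between -0.38 and -0.17), yet the one called, Ccl28, was positive. At the low end of that list Ccl9, a chemokine for myeloid cells, had an interaction of -3.44 (interval -5.64 to -1.24, adjusted p = 0.315) at values between 5.07 and 66.4.

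Of 12 Notch genes 1 was called (Neurl3), and of 8 genes tested on the list of EGF ligands and ErbB receptors 1 was called. Both medians were -0.06 and changed sign in 2 settings each. The called gene of the latter list was Lrig1, which restrains ErbB receptors. Ereg, a ligand of the EGF receptor called with a higher change in WT, was not on that list and was counted with the fetal-like and regenerative genes. The 22 AP-1 and immediate early genes held no call and were divided evenly, 11 positive and 11 negative, although 9 were called higher in WT (15.1% of all genes tested) and 7 in AHR KO (10.2%). The 15 BMP and TGF-beta genes (median 0.10, negative without AHR KO FICZ replicate 3) and the 21 hypoxia and glycolysis genes (median -0.09) held no call either. The lowest of the latter was Vegfa, an angiogenic factor (interval -0.89 to -0.11).

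**Figure D5:**
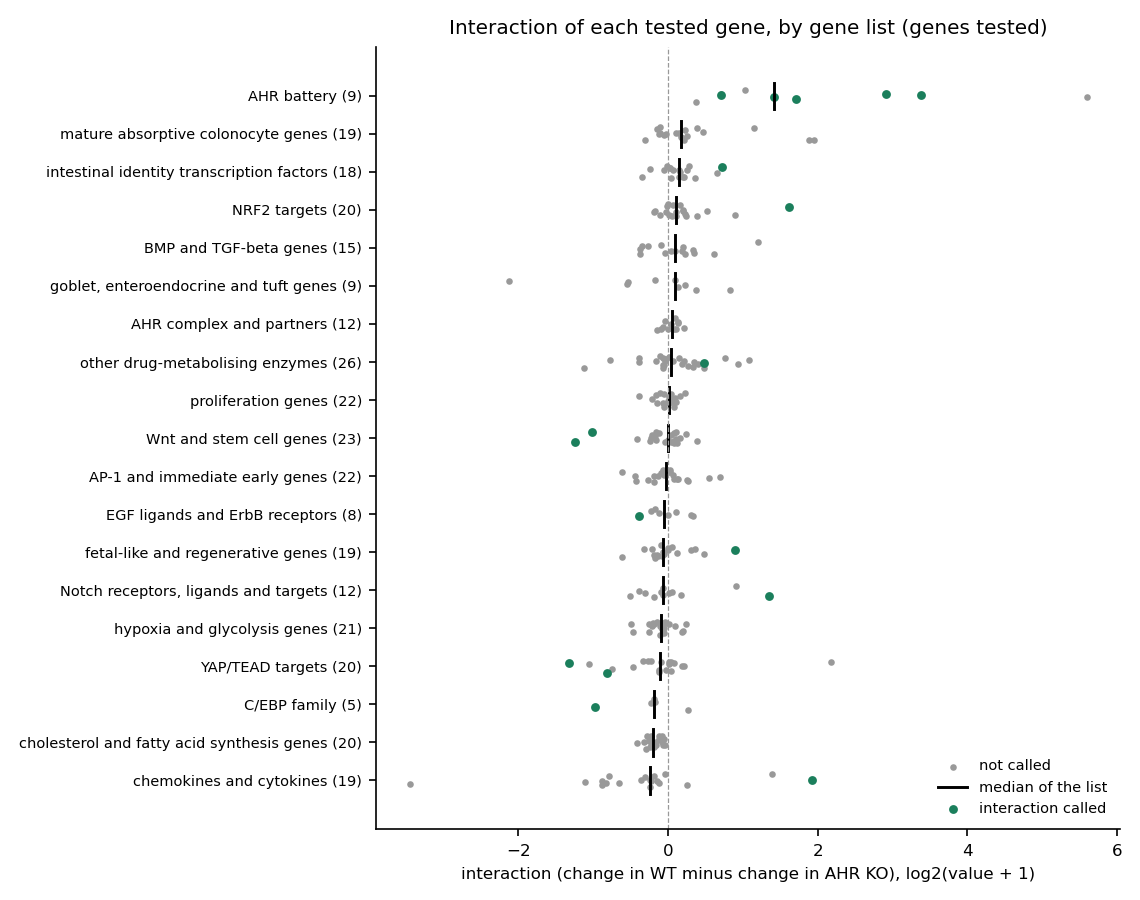
Interaction (log2(value + 1)) of each tested gene of 19 lists, with called genes in green, the others in grey and the median of each list as a bar. The AHR battery has a median of 1.41, whereas the medians of the other 18 lists lie between -0.24 and 0.17.

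The calls that held under other processing were a subset. Of the 57 genes, 13 were called under each alternative that gave a value for them: Slc2a6, Tiparp, Nqo1, Neurl3, Pof1b, Cldnd1, Edc3, Slc25a48, Ddx58, Exoc3, Cpox and Ccn2, and the pseudogene Gm10052. In the settings that left out 1 library, 20 were called in all 9: these 13 and Mall, Deptor, Plcg2, Ereg, Tsc22d1, Nfe2l2 and Slc26a2. No called gene changed the sign of its interaction under any of the 24 alternatives that gave a value for it.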

How the data were processed

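RNA sequencing of 9 libraries of colon organoids was analysed. The authors deposited 1 table of normalised read counts per gene (signal values, scaled between libraries and not whole numbers). The submitters' processing notes name STAR 2.5.2a, RSEM 1.2.31, DESeq2 1.16.1 and GRCm38, and the study's methods name stranded libraries depleted of ribosomal RNA. The scaling of the deposited signal is not given in the sources used here. Raw depth is therefore unknown, and between 53.0% and 62.2% of low values per library were within 0.05 of a whole number, so whole reads could not be recovered and a count test was not applied. All sample columns were used (0 unused).

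Gene positions and types were matched for 48435 of 48795 gene identifiers (99.3%), and 25158 genes were at 0 in all libraries. Values were analysed as log2(value + 1) where the mean of the gene over the 9 columns reached 10. The 4 groups were fitted without covariates in limma 3.58.1 (R 4.3.3, eBayes with trend, two-sided), and p-values were Benjamini-Hochberg adjusted over all genes tested. Log2 changes are on the log2(value + 1) scale, which understates the changes of low genes. Intervals are 95% intervals from that fit. The fit was tested on simulated data. Pseudogene transcripts were aligned to protein-coding transcripts with blastn 2.17.0.

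Genes were named by rule: called genes, with the values of every library for up to 15 at each end with a mean of 50 or more, the 15 at each end of the ranking, called list members, the ends of lists without a call, and a few fixed genes. The genes, the 19 lists and the markers of fibroblasts, immune cells, endothelium and epithelium were chosen with earlier results of these data known. The 24 alternatives changed the pseudocount, scale, filter, normalisation, variance model, block, GC and length correction or gene types, or left out 1 library. Not every gene that the rule covers is reported here.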

Additional observations from a re-analysis of the deposited data

Results flagged for a closer look

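The FICZ change differed between WT and AHR KO by the test of the interaction (limma, adjusted p under 0.05) for the genes that follow, each given with its interaction on the log2(value + 1) scale. The fitted value of Ahrr (3.39) is no measure of size, because with a pseudocount of 0.1 it was 0.78 (adjusted p = 0.871). The interaction was 1 or more for Aldh3a1 (2.91), Slc2a6 (2.31), Ccl28 (1.92), Mal (1.89), Tiparp (1.71), Ptgs2 (1.66), Osgin1 (1.61), Mall (1.42), Nqo1 (1.41), Neurl3 (1.34), Sytl2 (1.32), Fgf15 (1.18), Pof1b (1.14), Cldnd1 (1.13), Edc3 (1.07), Pik3r3 (1.06), Deptor (1.06), Slc25a48 (1.03), Plcg2 (1.01) and Ddx58 (1.01).

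It was positive and under 1 for Tnfaip2 (0.96), Exoc3 (0.94), Ereg (0.90), Tsku (0.89), Tsc22d1 (0.78), Hsd17b11 (0.77), Fbxo25 (0.74), Cpox (0.73), Nfe2l2 (0.71), Arl6ip5 (0.68), Ppard (0.68), Spint1 (0.65), Cpeb4 (0.62), Slc26a2 (0.62), Ick (0.61), Man1a (0.60), Rnf157 (0.60), Etnk1 (0.59), Smox (0.57), Ipmk (0.56), Clk3 (0.54), Pdgfa (0.54), Etv3 (0.49), Gsta4 (0.48) and Chp1 (0.43).

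It was negative for Lrig1 (-0.39), Pvr (-0.42), Dapk2 (-0.68), Ccn1 (-0.81), Cebpd (-0.98), Sox9 (-1.01), Lgr5 (-1.24) and Ccn2 (-1.33).

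The pseudogenes Gm10052 (7.88) and Gm10146 (-6.98) had the largest values in size, and both have libraries listed at 0, so that these values depend on the pseudocount, as that of Ahrr does.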

How the results depend on the processing

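Of the 57 interaction calls, 36 were shared with the 39 called under a replicate block (the number as a term) and 40 with the 52 called with the organoid line as a block. The deviations of libraries with equal numbers had correlations from -0.08 to 0.05, and from 0.03 to 0.05 within a genotype. In a group of 2 libraries the deviations mirror each other, so these correlations cannot decide whether equal numbers pair the libraries. The main fit did not treat the numbers as pairing the libraries. Without the variance trend in eBayes the interaction was called for 16 genes (13 higher, 3 lower, 14 of at least 2-fold), and FICZ in AHR KO for 1570. With the GC and length trend removed, FICZ was called for 2313 genes in WT and 683 in AHR KO, and with that correction and the replicate block together for 1891 and 512, while the interaction was called for 64 and 40. The square-root scale gave 72 interaction calls. The cause of these shifts was not tested.

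With 1 library left out, interaction calls ranged from 23 (without AHR KO DMSO replicate 1 or 3) to 78 (without WT FICZ replicate 2), those higher in WT from 20 to 60, those lower from 1 to 18 and those of at least 2-fold from 15 to 28. They were 33 without WT DMSO replicate 2, 35 without WT DMSO replicate 3 and 33 without WT FICZ replicate 3. FICZ calls ranged from 1990 to 4133 in WT and from 420 to 2961 in AHR KO, and were 2270 in WT without WT DMSO replicate 3, and 1261, 1544 and 1206 in AHR KO without AHR KO DMSO replicate 3, AHR KO FICZ replicate 1 and AHR KO FICZ replicate 3. Where 1 library remained in a group, it was assumed to vary like those of the other groups. Each of the 57 interactions kept its direction under every alternative that gave a value for that gene. Raw depth is unknown, and groups of 2 or 3 libraries limit the precision.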
